A study of Mus musculus with 8 samples.

Results

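The genes of sphingosine-1-phosphate (S1P) synthesis, breakdown, export and reception were followed in Kupffer cells, which are macrophages resident in the liver, after an abdominal infection was started. The 10 genes were named for their roles in the pathway, and Sphk1 among them was also chosen because its difference between the groups was one of the largest in these data. All 10 were found among the 55414 genes counted, by the symbol of their Ensembl identifier. The libraries came from wild-type (WT) C57BL/6J mice killed 2 h after caecal ligation and puncture (CLP), a surgical sepsis model in which gut contents leak from the pierced caecum, or 2 h after a sham operation (Sham). Kupffer cells were isolated by fluorescence-activated cell sorting, and each group had 4 libraries of RNA-seq. Nothing in the labels ties each library to its own mouse, and p-values therefore cover the spread among these libraries, which may be technical. The labels also give no antibody or gate of the sort.

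S1P is a signalling lipid made inside cells by phosphorylation of sphingosine, which itself is released from ceramide. It is either dephosphorylated and returned to ceramide, cleaved irreversibly by a lyase, or exported to act on G protein-coupled receptors that steer leukocyte traffic and the tightness of vessel walls. Macrophages are known both to make S1P and to respond to it.

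In the CLP libraries the inducible sphingosine kinase gene Sphk1 stood at 83.2 to 275 CPM (read counts scaled to library size), against 0.0335 to 0.244 CPM in Sham libraries, where it was close to undetected. The other kinase gene, Sphk2, was lower in CLP, as was the S1P phosphatase gene Sgpp1. The S1P lyase gene Sgpl1 and the receptor gene S1pr1 were higher in CLP, while the receptor gene S1pr2 was lower. The ceramide-forming gene Cers6 was higher, and the acid ceramidase gene Asah1 and the exporter gene Spns2 lay at about the same level in both groups. Because the comparison of CLP with Sham chose these genes, their differences are given as a description with standard errors and without p-values.

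Sphk1 lies on chromosome 11 and has several annotated starts. The levels of Sphk1 and Sphk2, which encode enzymes of the same step, differed in opposite directions between the groups. Sequences upstream of some of the Sphk1 starts, and upstream of a start of Sphk2, are therefore shown. Each is the 250 bases before a RefSeq transcription start (GRCm38.p6), written 5′ to 3′ on the strand of the gene. RefSeq windows were found for 8 of the 10 genes; S1pr1 and Asah1 had none. Capitals mark matches, on either strand, to the NF-kB consensus, the AP-1 motif TGANTCA, the cAMP response element TGACGTCA, the GC box GGGCGG, the E-box CACGTG and the TATA box TATAAA.
Sphk1, chr11:116530850-116531099, plus strand: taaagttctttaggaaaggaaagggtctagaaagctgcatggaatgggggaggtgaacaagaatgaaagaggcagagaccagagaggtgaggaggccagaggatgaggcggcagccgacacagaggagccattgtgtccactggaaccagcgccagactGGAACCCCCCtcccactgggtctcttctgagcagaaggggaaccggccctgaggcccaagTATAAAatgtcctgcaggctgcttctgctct
Sphk1, chr11:116531587-116531836, plus strand: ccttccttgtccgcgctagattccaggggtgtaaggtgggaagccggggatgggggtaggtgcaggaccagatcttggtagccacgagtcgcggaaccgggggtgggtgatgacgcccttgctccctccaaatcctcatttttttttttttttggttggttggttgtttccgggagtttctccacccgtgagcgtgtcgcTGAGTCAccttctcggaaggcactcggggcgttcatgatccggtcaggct
Sphk1, chr11:116532194-116532443, plus strand: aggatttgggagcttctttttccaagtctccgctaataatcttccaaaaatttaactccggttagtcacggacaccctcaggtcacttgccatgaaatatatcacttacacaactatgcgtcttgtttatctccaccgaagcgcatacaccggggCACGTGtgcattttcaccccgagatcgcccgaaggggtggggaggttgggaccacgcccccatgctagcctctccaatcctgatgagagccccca
Sphk2, chr7:45715208-45715457, minus strand: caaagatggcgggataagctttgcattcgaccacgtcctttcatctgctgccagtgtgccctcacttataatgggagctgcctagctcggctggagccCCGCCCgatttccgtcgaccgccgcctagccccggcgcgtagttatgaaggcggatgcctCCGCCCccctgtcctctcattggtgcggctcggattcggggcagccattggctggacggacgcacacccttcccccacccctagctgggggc
The first Sphk1 window held an NF-kB consensus whose first base was at -91 from the start, and a TATA box at -31. The second held an AP-1 motif at -50 and the third an E-box at -95. Counted from other Sphk1 starts nearby, whose windows are not shown, these matches lay at -124 and -102. Parts of the first and second windows are also annotated as exons of other Sphk1 transcripts in GENCODE M21. The Sphk2 window held GC boxes only, and the matches printed did not overlap each other. Among 32851 such windows of mouse genes, 7.25% held the NF-kB consensus, 6.75% the AP-1 motif, 1.55% the cAMP response element, 32.7% the GC box, 6.02% the E-box and 12.4% the TATA box. These are matches of letters, and no binding was measured.

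Library totals ran from 23311897 to 28724875 counts over genes, and CPM values were scaled by the trimmed mean of M-values (TMM). The labelled cell type was checked against 12 Kupffer cell markers, all of which were detected. Their sums overlapped narrowly, at 35366 to 45373 CPM in CLP and 27543 to 35435 CPM in Sham. Among the 12 markers, the Kupffer cell lectin gene Clec4f had 7999 to 10147 CPM in CLP and 6309 to 8022 CPM in Sham. On the first principal component, with 76.7% of the variance, CLP replicate 1 stood at -45.2, nearer to Sham than the rest of its group. The other CLP libraries stood at -82.3 to -78.2 and the Sham libraries at 59.4 to 82.9. CLP replicate 1 also lay away from its group on the second, with 9.99% of the variance, so values are given library by library. The edgeR quasi-likelihood fit over 14655 genes called 54.3% of them at an adjusted p of 0.05, with 24.9% higher and 29.5% lower in CLP. Of the 10 S1P genes, 9 passed the filter on low counts, Sgpp2 being the exception. Of those 9, 4 were past the threshold as higher and 3 as lower, but the contrast chose the genes, and nothing is read from these counts. Sphk1 passed the filter through its CLP libraries alone. The libraries of the groups did not overlap for 5 of the 9, with CLP above for 4 and below for 1. Among all genes tested, 49.5% did not overlap, with CLP above for 22.1% and below for 27.3%. The median log2 fold change was 0.14 over the 9 and -0.04 over all genes tested. In bulk RNA, fewer cells of a type and less RNA per cell cannot be told apart.

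**Figure D1:**
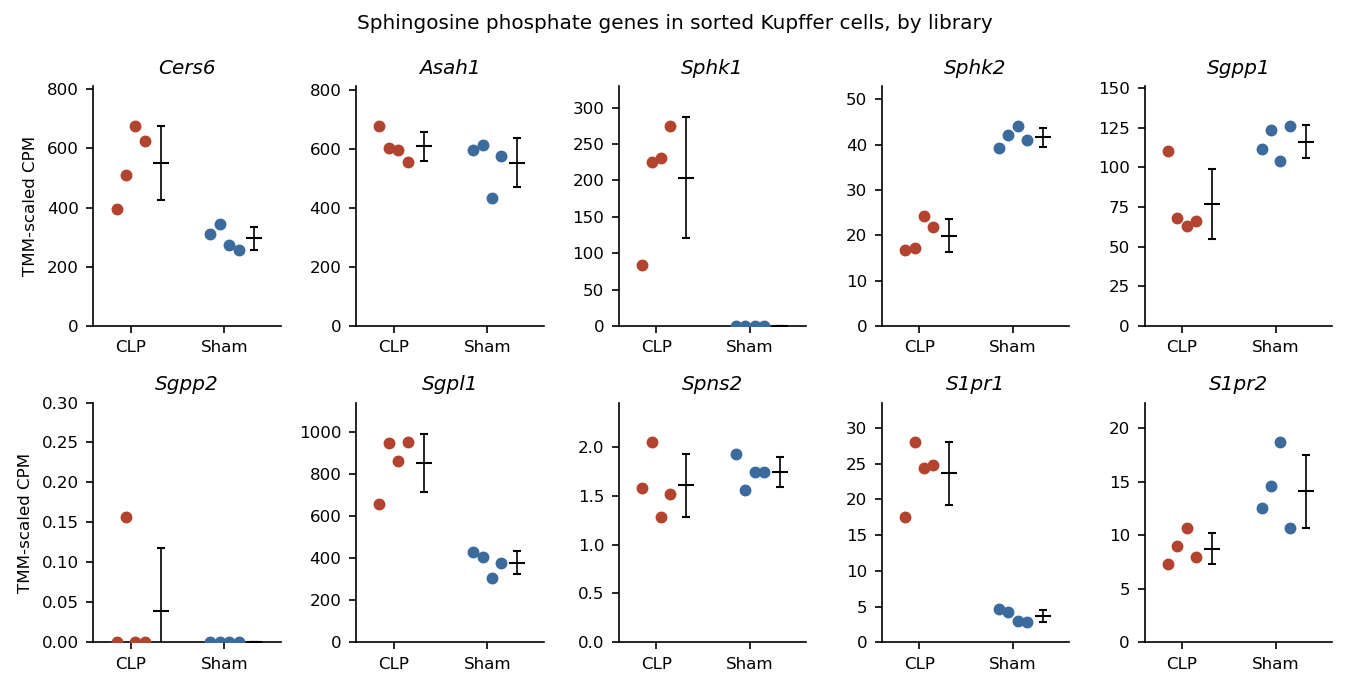
TMM-scaled CPM of the 10 S1P genes in each library, with CLP left of Sham and a separate linear axis from 0 for each gene. Points are libraries in replicate order, and the bars give the mean and the SD of 4 libraries. The CLP points of Sphk1 lie between 83.2 and 275 CPM and its Sham points below 0.25 CPM, while the points of Asah1 and Spns2 overlap between the groups.

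Ceramide supplies the sphingosine that the kinases use. Cers6, a ceramide synthase known for making ceramide with a palmitoyl chain, had 395, 511, 676 and 624 CPM in CLP replicates 1 to 4, against 309, 344, 272 and 257 CPM in Sham replicates 1 to 4. Every CLP library lay above every Sham library, and CLP replicate 1 was the lowest of its group. The log2 fold change was 0.90 ± 0.18 (SE). It was 0.35 when libraries were scaled by total counts, a setting that moved the median over all genes by -0.56. Asah1, the acid ceramidase of lysosomes that frees sphingosine from ceramide, had 678, 603, 598 and 557 CPM in CLP, against 595, 612, 433 and 577 CPM in Sham. The groups overlapped, with Sham replicate 3 as the lowest library. The log2 fold change of Asah1 was 0.14 ± 0.14 (SE), and it turned to -0.41 with scaling by total counts.

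Sphk1 and Sphk2 encode the sphingosine kinases, of which SPHK1 is mainly cytosolic and is recruited to the plasma membrane on stimulation, while SPHK2 is found largely in the nucleus and on internal membranes. Sphk1 (ENSMUSG00000061878) had 83.2, 226, 231 and 275 CPM in CLP replicates 1 to 4, against 0.244, 0.152, 0.0335 and 0.0611 CPM in Sham replicates 1 to 4. CLP replicate 1 held less than the other 3 CLP libraries, and still far more than any Sham library. These values rest on 2000, 4309, 5036 and 5634 counts in CLP and on 8, 5, 1 and 2 counts in Sham. The pooled ratio was 1591, with an exact 95% counting interval of 979 to 2783 that covers counting error only. Of the 16 Sham counts 8 were in replicate 1, and without that library the ratio was 2368. The fitted log2 fold change was 10.62 ± 0.54 (SE), which for a gene so near 0 in Sham depends on the prior count.

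Sphk2 (ENSMUSG00000057342) had 16.6, 17.2, 24.1 and 21.7 CPM in CLP, against 39.2, 42.1, 44.1 and 40.9 CPM in Sham. Every CLP library was below every Sham library, with a log2 fold change of -1.06 ± 0.13 (SE). Exons of Sphk2 overlap those of Rpl18 and Dbp on the opposite strand. Rpl18, a ribosomal protein gene, had 2082 to 2923 counts in CLP and 2340 to 3149 in Sham, and Dbp, a circadian transcription factor gene, had 9 to 35 counts in CLP and 39 to 97 in Sham. The library kit keeps strand, but the strand setting of the count is not given in the sources used here, so reads of overlapping genes may not have been told apart. Sphk1 overlaps the antisense gene Gm29292 in the same way, which had 49 to 82 counts in CLP and 0 to 1 in Sham, far fewer than Sphk1 in CLP.

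Per kilobase of exon, the kinase transcripts changed places. Sphk1 made up 81.3%, 92.0%, 89.3% and 91.7% of the summed Sphk1 and Sphk2 level in the CLP libraries, against 0.540%, 0.314%, 0.0662% and 0.130% in the Sham libraries. The summed level of both kinases was 47.4 ± 18.0 CPM per kb in CLP and 10.0 ± 0.48 CPM per kb in Sham (SD, n = 4 each). The lowest CLP library, at 21.4 CPM per kb, was above the highest Sham library, at 10.6 CPM per kb.

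Neutrophils and platelets also carry sphingosine kinases, and their markers differed between the groups. All 8 neutrophil markers tested of a list of 10 rose, beside 24.9% of all genes tested. Markers near 0 in Sham could pass the filter on low counts through their CLP libraries alone, which tilts this count towards rises. The summed list reached 200, 326, 559 and 518 CPM in CLP replicates 1 to 4, against 82.4 to 119.99 CPM in Sham. Csf3r alone had 148 to 318 CPM in CLP and 79.9 to 114 CPM in Sham, which was most of the Sham sum. S100a8 had 18.9 to 86.5 CPM in CLP and 0.764 to 1.65 CPM in Sham. The defining gene Ly6g was at 0 in all 4 Sham libraries and at 0.125 to 0.687 CPM in CLP. CLP replicate 1 was lowest both for the neutrophil sum and for Sphk1, but CLP replicate 3 was highest for the sum and CLP replicate 4 for Sphk1. All 6 platelet markers tested of a list of 8 rose, with the same limit of the filter. The summed list was at 121 to 195 CPM in CLP and 15.2 to 27.9 CPM in Sham. Most of that sum was Pf4, at 93.8 to 173 CPM in CLP and 13.3 to 25.4 CPM in Sham. Itga2b of the same list had 4.16 to 8.14 CPM in CLP and 1.04 to 1.34 CPM in Sham. The platelet gene Gp1bb was at 0 in every library and cannot compare the groups. Sums of monocyte markers were 3.98 to 7.66 CPM in CLP and 4.34 to 6.00 CPM in Sham and overlapped. Hepatocyte marker sums, at 2511 to 3395 CPM in CLP and 1799 to 2599 CPM in Sham, and red cell sums, at 7.99 to 14.9 CPM in CLP and 3.52 to 9.17 CPM in Sham, overlapped too, while stellate cell sums did not, at 39.9 to 59.8 CPM in CLP and 31.4 to 39.2 CPM in Sham. Which sums lay apart depended on the scaling, and with total counts fewer lists had every CLP library above every Sham library. The part of neutrophils, platelets and the other cells listed in the level of Sphk1 was not tested.

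**Figure D2:**
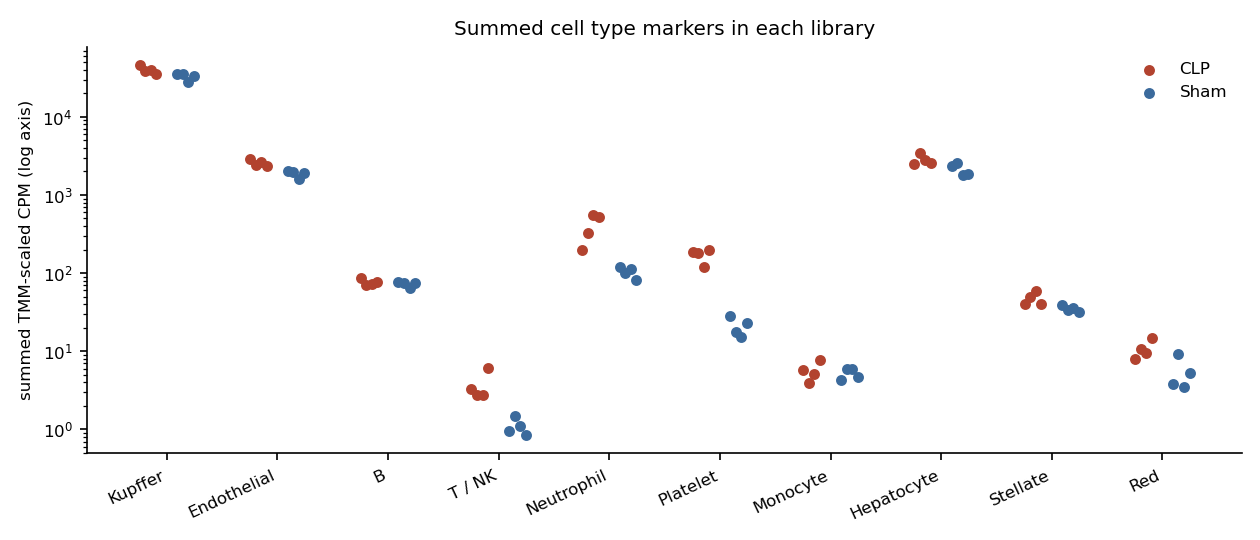
Summed TMM-scaled CPM of the marker lists of 10 cell types in each library, on a log axis, with CLP left of Sham in each pair. Points are libraries in replicate order. The CLP and Sham points of the Kupffer cell, B cell and monocyte lists overlap, and those of the neutrophil and platelet lists do not.

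The genes whose profile over the 8 libraries was most like that of Sphk1 were Slamf1, Csf3, Cxcl3, Tnfrsf9 and Sele. Likeness was the root mean square difference between log2 CPM values centred on each gene's mean, and it was 0.65 for Slamf1, a receptor of the SLAM family, 0.76 for Csf3, the granulocyte colony-stimulating factor, and 1.05 for Cxcl3, a neutrophil attractant. It was 1.17 for Tnfrsf9, the receptor CD137, and 1.18 for Sele, the endothelial adhesion molecule E-selectin. The log2 fold changes of these genes were 9.50 to 11.5, and their Sham libraries held at most 0.856 CPM. The difference between the groups, which also chose Sphk1, weighs most in this measure. The likeness is therefore a description, and shared control of these genes was not tested. Slamf1 shared the low value in CLP replicate 1, at 46.7 CPM, where replicates 2 to 4 held 264 to 282 CPM. The low value was also seen for Tnfrsf9, at 7.70 CPM there and 24.4 to 29.5 CPM in replicates 2 to 4. For Csf3 the CLP libraries held 261, 524, 275 and 359 CPM, and the lowest were replicates 1 and 3. In Cxcl3 and Sele replicate 1 was not the lowest. Cxcl3 had 469, 808, 352 and 913 CPM in CLP replicates 1 to 4, and Sele had 33.6, 42.4, 23.5 and 26.6 CPM.

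S1P is removed by cleavage or by dephosphorylation. The lyase encoded by Sgpl1 cleaves it irreversibly in the endoplasmic reticulum. Sgpl1 had 655, 946, 863 and 949 CPM in CLP, against 428, 404, 304 and 376 CPM in Sham. The groups did not overlap, CLP replicate 1 was again the lowest CLP library, and the log2 fold change was 1.17 ± 0.16 (SE), or 0.62 with scaling by total counts. The phosphatases encoded by Sgpp1 and Sgpp2 return S1P to sphingosine. Sgpp1 had 110, 67.9, 63.1 and 66.4 CPM in CLP, against 111, 123, 104 and 126 CPM in Sham. Of the CLP libraries, 3 were below every Sham library, and CLP replicate 1 lay within the Sham range. The log2 fold change of Sgpp1 was -0.60 ± 0.18 (SE), and it was -0.82 without CLP replicate 1. Sgpp2 had 3 counts, all in CLP replicate 2, and none in the other libraries. A count of 0 allows up to 0.0914 to 0.101 CPM in the Sham libraries, and up to 0.125 to 0.146 CPM in the other 3 CLP libraries. Exons of Sgpp2 overlap the opposite-strand gene Farsb, which had 422 to 582 counts in CLP and 771 to 868 in Sham.

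Spns2 encodes the transporter that exports S1P from endothelial cells. It had 1.58, 2.04, 1.28 and 1.51 CPM in CLP, against 1.92, 1.55, 1.74 and 1.74 CPM in Sham, and the groups overlapped. Its log2 fold change was -0.12 ± 0.23 (SE), and -0.68 with scaling by total counts. Exons of Spns2 overlap Mybbp1a on the other strand, a gene with 2972 to 4273 counts in CLP and 2959 to 3489 in Sham, against 28 to 39 counts of Spns2 in CLP and 51 to 63 in Sham.

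S1PR1 couples to Gi and is the receptor by which lymphocytes leave lymphoid tissue and endothelium keeps its barrier. S1pr1 had 17.5, 28.0, 24.5 and 24.8 CPM in CLP, against 4.64, 4.30, 3.02 and 2.87 CPM in Sham. Every CLP library held more than 3 times the highest Sham value, and the log2 fold change was 2.67 ± 0.21 (SE), or 2.12 with scaling by total counts. S1PR2 couples to several G proteins and is known for opposing cell migration. S1pr2 had 7.37, 9.01, 10.7 and 8.0 CPM in CLP, against 12.5, 14.6, 18.7 and 10.7 CPM in Sham. CLP replicate 3 lay just above the lowest Sham library, so the groups overlapped, and the log2 fold change was -0.69 ± 0.19 (SE).

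Per kilobase, S1pr1 supplied 86.1%, 89.0%, 85.7% and 89.0% of the summed S1pr1 and S1pr2 level in CLP, against 49.2%, 43.5%, 29.7% and 41.3% in Sham. Of the receptor genes that were not among the 10, S1pr3 rose to 4.66 to 11.9 CPM in CLP, against 0.436 to 1.96 CPM in Sham (log2 fold change 2.76 ± 0.44 SE, edgeR adjusted p = 3.9e-04). S1pr4, a receptor of lymphoid cells, had 0.209 to 0.780 CPM in CLP and 0.183 to 0.610 CPM in Sham, and S1pr5 had 0 CPM in every CLP library and 0 to 0.0306 CPM in Sham. Neither passed the filter on low counts. In CLP the order per kilobase was S1pr1 at 7.77 ± 1.45, S1pr3 at 1.81 ± 0.67 and S1pr2 at 1.10 ± 0.18 CPM per kb (SD, n = 4), with S1pr3 and S1pr2 overlapping. In Sham it was S1pr2 at 1.77 ± 0.43, S1pr1 at 1.22 ± 0.29 and S1pr3 at 0.264 ± 0.15 CPM per kb, with S1pr2 and S1pr1 overlapping.

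Endothelial cells and lymphocytes are rich in S1pr1, and both could enter a sort of liver cells. Of 12 endothelial markers tested 7 rose, beside 24.9% of all genes tested. The summed list was 2362 to 2848 CPM in CLP and 1621 to 2052 CPM in Sham, a ratio of 1.35. Most of that sum was Cdh5, at 1720 to 2217 CPM in CLP and 1075 to 1388 CPM in Sham. The sum and its ratio therefore mainly follow that gene, and which cells carried it was not tested. The ratio also depends on the scaling, since total counts moved the median log2 fold change over all genes by -0.56. Tie1, another gene of the list, had only 3.83 to 8.68 CPM in CLP and 2.07 to 3.76 CPM in Sham. Pecam1 went the other way, at 107 to 135 CPM in CLP and 116 to 176 CPM in Sham, without passing the threshold. Of 8 B cell markers tested, 6 rose and 1 fell, and the sums overlapped at 71.3 to 86.0 CPM in CLP and 65.2 to 77.1 CPM in Sham. T and NK cell markers summed to 2.78 to 6.05 CPM in CLP and 0.855 to 1.49 CPM in Sham over 10 genes. The part of these cells in the level of S1pr1 was not tested.

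Set in order per kilobase within a group, Asah1 was the most abundant of the 10 transcripts in both groups, at 180 ± 15.0 CPM per kb in CLP and 164 ± 24.2 CPM per kb in Sham (SD, n = 4 each). Sgpl1 came next, at 139 ± 22.5 CPM per kb in CLP and 61.5 ± 8.77 CPM per kb in Sham, followed by Cers6, at 62.1 ± 14.1 CPM per kb in CLP and 33.3 ± 4.40 CPM per kb in Sham. Sphk1 held rank 4 in CLP, at 42.6 ± 17.4 CPM per kb, and rank 9 in Sham, at 0.0257 ± 0.020 CPM per kb. Its range in CLP overlapped those of Cers6 above it and Sgpp1 below it, with 17.4 CPM per kb in CLP replicate 1 and 47.3 to 57.6 CPM per kb in replicates 2 to 4. In Sham the neighbours in the order did not overlap, apart from S1pr2 and S1pr1. Sphk1 and Sgpp2, last in that order, had few or no counts in Sham, so which of them was lower is not resolved. In CLP, S1pr1 and Sphk2 overlapped as well, and the last 3 places, S1pr2, Spns2 and Sgpp2, were distinct. In CLP the lyase transcript stood above the summed kinase level in every library, at 107 to 154 CPM per kb for Sgpl1 and 21.4 to 62.8 CPM per kb for Sphk1 and Sphk2 together.

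**Figure D3:**
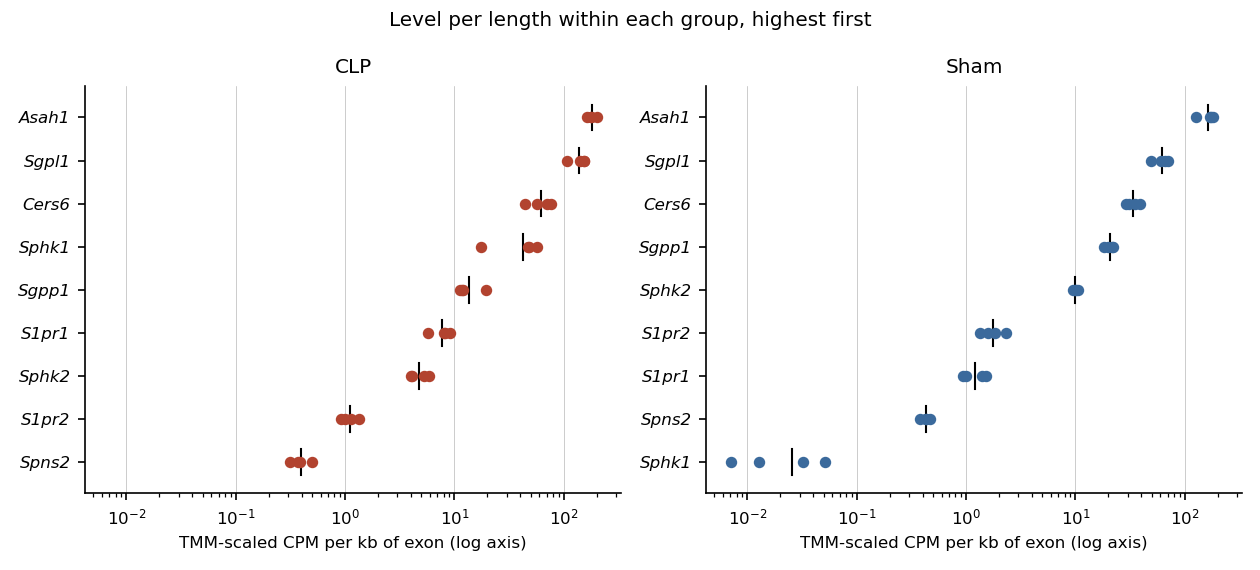
TMM-scaled CPM per kilobase of exon for 9 of the S1P genes, ordered by their mean within CLP (left) and within Sham (right), on a shared log axis. Points are libraries and black ticks are means of 4; Sgpp2 is left out because most of its values are 0. Sphk1 stands at rank 4 in CLP and last of those drawn in Sham, and Asah1, Sgpl1 and Cers6 lead both panels.

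The spread between libraries differed among the genes. In CLP the coefficient of variation of the 9 genes that passed the filter ran from 8.33% for Asah1 to 40.9% for Sphk1. Within CLP, replicate 1 was the lowest library for Sphk1, Sphk2, Cers6, Sgpl1, S1pr1 and S1pr2, and the highest for Sgpp1 and Asah1.

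The rest of sphingolipid metabolism was read from 61 further genes listed by role, of which 51 passed the filter on low counts. Of these, 17 rose and 13 fell, or 9 and 29 with scaling by total counts and 13 and 16 with upper-quartile scaling, against the 24.9% and 29.5% of all genes tested that were higher and lower. Their median log2 fold change was 0.09. Leaving out CLP replicate 1 gave 18 higher and 18 lower. The counts by role that follow rest on 3 to 11 genes each and were not tested against those shares, so they describe the genes named and nothing particular to a role.

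Of the 11 genes of de novo ceramide synthesis tested, 3 were higher and 4 lower, near the shares over all genes tested. Degs1, the desaturase that completes ceramide, rose to 104 ± 7.26 CPM in CLP, against 53.3 ± 5.30 CPM in Sham (SD, n = 4 each; log2 fold change 0.96 ± 0.11 SE, edgeR adjusted p = 3.6e-05). The other genes that rose were Cers2 and Sptlc2, at log2 fold changes of 0.48 and 0.30. With scaling by total counts these were -0.07 and -0.25, and Sptlc2 was not past the threshold in 5 of the 8 fits that left out a library. Ormdl3 and Ormdl1, whose proteins restrain serine palmitoyltransferase, the first enzyme of the pathway, fell by 1.07 and 1.15 on the log2 scale (edgeR adjusted p = 5.4e-05 and 2.3e-04). Kdsr, the reductase of the following step, fell by 0.70 (edgeR adjusted p = 3.8e-04), and Cers4, a ceramide synthase, by 1.46. Ormdl2, of the same family as Ormdl3 and Ormdl1, was not past the threshold (log2 fold change -0.09, edgeR adjusted p = 0.513). Per kilobase in CLP it averaged 11.2 CPM per kb, against 3.57 for Ormdl3 and 1.08 for Ormdl1. Cers2, Sptlc2, Cers4 and Ormdl2 were named after their values were seen.

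None of the 3 ceramidase genes tested besides Asah1, which were Asah2, Acer2 and Acer3, passed the threshold with edgeR, a count of 0. At an unadjusted p under 0.05 the count was 1, with DESeq2 it was 1 and with limma voom 0. In the sphingomyelin cycle, 3 of 10 genes rose and 3 fell, again near the shares over all genes tested. Sgms1, Sgms2 and Samd8 of the sphingomyelin synthase family rose. Sgms1, which makes sphingomyelin in the Golgi, averaged 85.8 ± 9.15 CPM in CLP libraries, against 21.6 ± 3.49 CPM in Sham libraries (log2 fold change 1.99 ± 0.14 SE, edgeR adjusted p = 3.4e-06). Samd8, which makes the related lipid ceramide phosphoethanolamine, rose by 0.58 ± 0.11 (SE, edgeR adjusted p = 0.00116), although with scaling by total counts its log2 fold change was 0.02. Sgms2, at the plasma membrane, rose by 1.83 on the log2 scale. Smpd1, the acid sphingomyelinase, fell by 0.48 ± 0.17 (SE, edgeR adjusted p = 0.0341), a call that was lost in 6 of the 8 fits that left out a library. Smpd2 and Smpd5 fell by 0.61 and 1.92, and Smpd5 was at most 0.416 CPM in CLP. The other genes of the sphingomyelinase family, Smpd3, Smpd4, Smpdl3a and Smpdl3b, were not past the threshold. Smpdl3a had 775 to 918 CPM in CLP, against 514 to 737 CPM in Sham, so that every CLP library lay above every Sham library (log2 fold change 0.32 ± 0.14 SE, edgeR adjusted p = 0.0743, and -0.23 with scaling by total counts). The genes of this cycle other than Sgms1, Samd8 and Smpd1 were named after their values were seen.

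Of the 3 genes for ceramide kinase and transfer, 1 rose and 1 fell. Cert1, which carries ceramide to the Golgi for sphingomyelin synthesis, averaged 61.3 ± 13.5 CPM in CLP libraries, against 45 ± 6.25 CPM in Sham libraries (log2 fold change 0.44 ± 0.17 SE, edgeR adjusted p = 0.0476). CLP replicate 1 lay among the Sham values, at 41.2 CPM against 65.5 to 70.0 CPM in the other CLP libraries, and the call was lost in 6 of the 8 fits that left out a library. It was also lost with upper-quartile scaling (edgeR adjusted p = 0.126), without the filter on low counts (0.0532), with a replicate block (0.0504) and with limma voom (0.0642), and with scaling by total counts the log2 fold change turned to -0.12. Cptp, which transfers ceramide phosphate, fell by 2.07 on the log2 scale, and was named after its value was seen.

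Glycosphingolipid synthesis held the largest rise of the genes of sphingolipid metabolism and S1P signalling named outside the 10. Of its 4 genes tested, 2 rose and 1 fell. The other, B4galt6, of the same family as B4galt5, overlapped between the groups and was not past the threshold. B4galt6 was named after its value was seen. B4galt5, a lactosylceramide synthase, averaged 788 ± 159 CPM in CLP libraries, against 99.8 ± 40.1 CPM in Sham libraries (SD, n = 4 each; log2 fold change 2.98 ± 0.29 SE, edgeR adjusted p = 2.0e-05). Ugcg, the glucosylceramide synthase that comes before it, averaged 178 ± 44.8 CPM in CLP libraries, against 61.6 ± 4.11 CPM in Sham libraries (1.53 ± 0.17 SE, edgeR adjusted p = 4.6e-05). St3gal5, the sialyltransferase that turns lactosylceramide into the ganglioside GM3, fell by 0.87 ± 0.25 (SE, edgeR adjusted p = 0.0135). Its CLP libraries held 415, 204, 189 and 181 CPM, against 383 to 498 CPM in Sham, so that CLP replicate 1 lay within the Sham range, and without that library the log2 fold change was -1.24.

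Of the 10 genes of lysosomal and related glycosphingolipid breakdown, 3 rose and 2 fell. Gla, alpha-galactosidase A, averaged 88.6 ± 27.4 CPM in CLP libraries, against 19.9 ± 3.24 CPM in Sham libraries (log2 fold change 2.15 ± 0.23 SE, edgeR adjusted p = 3.1e-05). Gba2, a glucosylceramidase outside the lysosome, fell by 1.35 ± 0.24 (SE, edgeR adjusted p = 8.3e-04), and Galc, galactosylceramidase, by 0.48 ± 0.16 (SE, edgeR adjusted p = 0.0271). Galc was not past the threshold in 6 of the 8 fits that left out a library. Psap, the precursor of the saposins, rose by 0.39. It was -0.15 with scaling by total counts and missed the threshold in 6 of the 8 fits that left out a library. Psap was named after its value was seen.

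**Figure D4:**
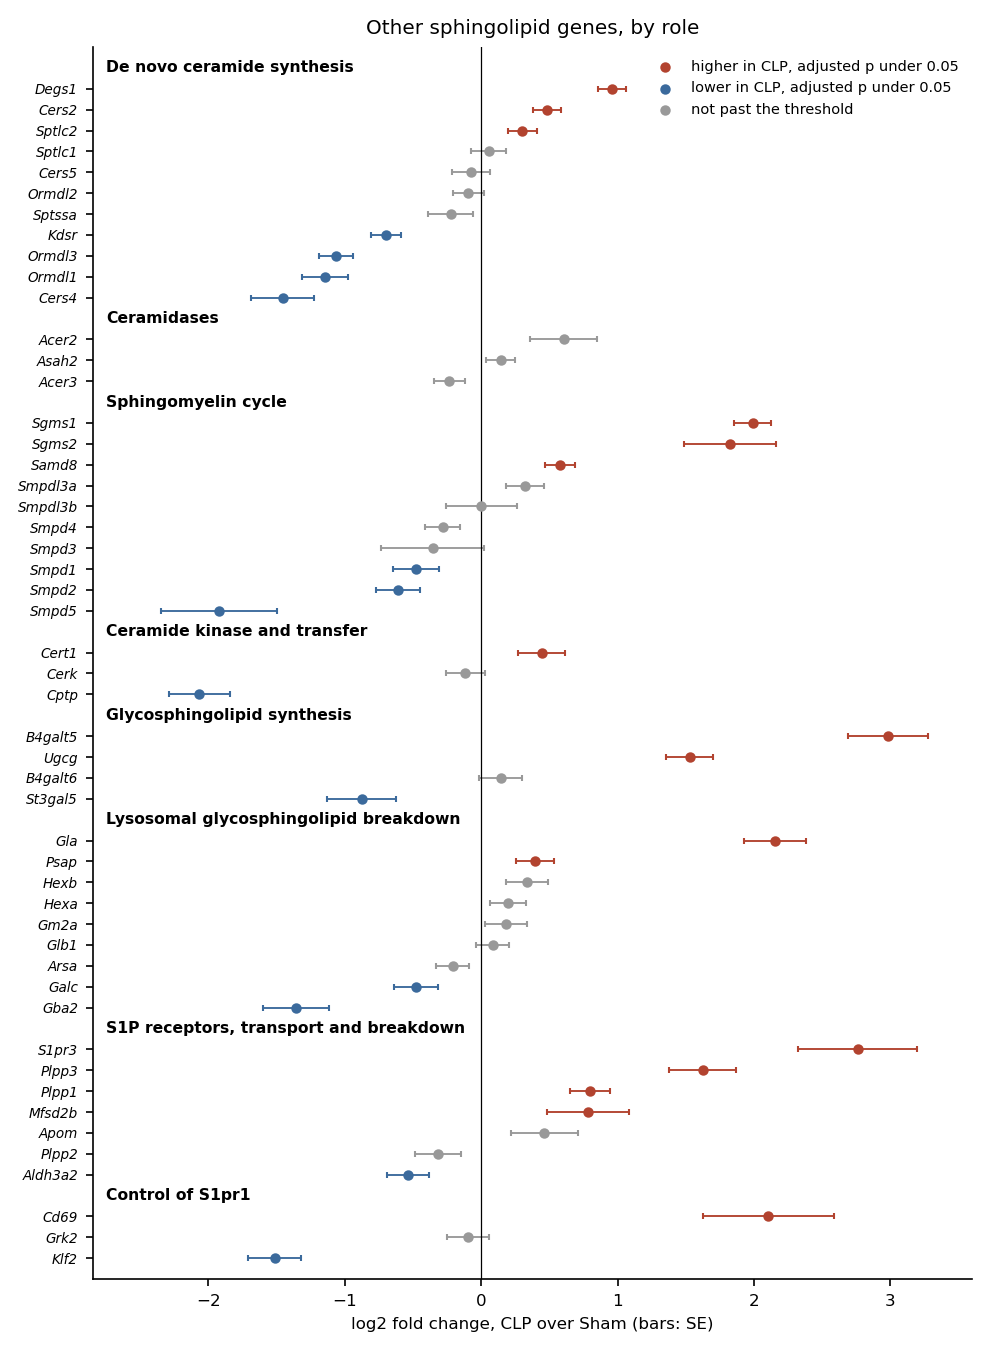
Log2 fold changes of CLP over Sham, with standard errors as bars, for 50 of the 51 tested genes of sphingolipid metabolism and S1P signalling outside the 10, grouped by role. Red points were higher and blue points lower in CLP at an adjusted p under 0.05, and grey points were not past the threshold. B4galt5 has the largest positive value of the genes drawn, at 2.98, and Cptp the most negative, at -2.07.

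Among other genes that handle S1P, 4 of the 7 tested rose and 1 fell. Plpp3 and Plpp1 encode lipid phosphate phosphatases, which act on S1P at the cell surface. Plpp3 averaged 145 ± 43.6 CPM in CLP libraries, against 47.2 ± 10.3 CPM in Sham libraries (log2 fold change 1.62 ± 0.24 SE, edgeR adjusted p = 2.8e-04). Plpp1 averaged 38.0 ± 4.84 CPM in CLP libraries, against 21.8 ± 3.65 CPM in Sham libraries (0.80 ± 0.14 SE, edgeR adjusted p = 9.0e-04), and with scaling by total counts it was not past the threshold (0.25, edgeR adjusted p = 0.116). Per kilobase, Plpp3 at 46.0 ± 13.8 CPM per kb was above Sgpp1 at 13.6 ± 3.94 CPM per kb in CLP, and below it in Sham, at 14.9 ± 3.27 against 20.6 ± 1.83 CPM per kb (SD, n = 4). Mfsd2b, the S1P exporter of red cells and platelets, was at 0.995 to 1.83 CPM in CLP and 0.611 to 1.07 CPM in Sham (log2 fold change 0.79 ± 0.30 SE, edgeR adjusted p = 0.0468). The platelet marker sums given above were higher in CLP, and the red cell sums overlapped. The part of these cells in the level of Mfsd2b was not tested. The Mfsd2b call was lost in 5 of the 8 fits that left out a library. Aldh3a2, which oxidises the aldehyde released by the lyase, fell by 0.54 ± 0.15 (SE, edgeR adjusted p = 0.0118).

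Of the genes known to control S1PR1, Klf2, a transcription factor that drives S1pr1 in lymphocytes, fell to 79.4 ± 22.4 CPM in CLP, against 227 ± 34.4 CPM in Sham (SD, n = 4 each; log2 fold change -1.52 ± 0.20 SE, edgeR adjusted p = 1.0e-04). Cd69, whose protein binds S1PR1 and takes it off the surface of lymphocytes, rose by 2.11 ± 0.48 (SE, edgeR adjusted p = 0.00375), with 6.70 to 9.90 CPM in CLP and 4.34, 0.853, 0.872 and 1.25 CPM in Sham replicates 1 to 4. Without Sham replicate 1 its log2 fold change was 3.00. Cd69 was named after its value was seen. Grk2, a kinase that desensitises the receptor, was at 318 to 494 CPM in CLP and 359 to 428 CPM in Sham and was not past the threshold (-0.09 on the log2 scale, edgeR adjusted p = 0.621).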

How the data were processed

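RNA was taken from sorted Kupffer cells, 4 libraries per group, with the Illumina TruSeq stranded kit on an Element AVITI, per the labels' protocols. The values are raw read counts per Ensembl gene, deposited by the authors; FastQC, STAR 2.7.10b, featureCounts, DESeq2 and mm39 are named in the submitters' processing notes, while settings, annotation release and strandedness of the count are not given there. The only table covers the whole series.

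Symbols, exon lengths and overlapping genes came from GENCODE M21 (GRCm38), which named 52133 of 55414 IDs. Counts were filtered with filterByExpr, TMM-scaled and tested with edgeR 4.0.16 (R 4.3.3, robust quasi-likelihood F-test, surgery as the only term), with Benjamini-Hochberg adjustment over 14655 genes. The SE is the absolute log2 fold change over the square root of F. CPM per kb divides by the union of exons. Depth was 23311897 to 28724875 counts. Log2 CPM used a prior count of 2.

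The 10 genes, the lists and the tests were chosen with earlier results of these data known. From the 61 further genes, up to 4 per role with the smallest p and a mean of at least 10 CPM in either group were named, plus the S1P receptors and transporters; others are marked in the text, and results of some genes are not reported here. The fit was tested on simulated data. Alternatives used DESeq2 1.42.0, limma 3.58.1 (voom), other scalings, no filter, a replicate block and the omission of each library.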

Additional observations from a re-analysis of the deposited data

Results flagged for a closer look

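In 7 of 82 groups of 4 libraries checked, 1 library lay far from the other 3, where chance gives about 5% of groups. In 4 of the 7 it was CLP replicate 1. Sgpp1 had 110 CPM there, against 63.1 to 67.9 CPM in the other CLP libraries. Smpd1 had 23.01 CPM, against 14.8 to 15.6 CPM. St3gal5 had 415 CPM, against 181 to 204 CPM. Cert1 had 41.2 CPM, against 65.5 to 70.0 CPM. The T and NK cell marker sum was 6.05 CPM in CLP replicate 4, against 2.78 to 3.33 CPM in the other CLP libraries. The platelet marker sum was 121 CPM in CLP replicate 3, against 183 to 195 CPM in the others. S1pr5 had 0 CPM in Sham replicate 3, against 0.0305 to 0.0306 CPM in the other Sham libraries, which is a single count in each.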

How the results depend on the processing

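Scaling by total counts moved the median of all log2 fold changes by -0.56 and upper-quartile scaling by -0.10. With total counts, 1715 genes were higher and 8292 lower in CLP, in place of 3644 and 4319. It gave 5 of the S1P genes as lower in place of 3, and 9 of the wider list higher and 29 lower in place of 17 and 13. Among the genes with values in the text, log2 fold changes turned negative for Asah1 (-0.41), Cert1 (-0.12), Cers2 (-0.07), Sptlc2 (-0.25), Psap (-0.15) and Smpdl3a (-0.23). Marker lists with every CLP library above every Sham library numbered 3 in place of 5, and 1 lay below in place of 0. A change of scaling shifts every gene. The TMM factors were 0.801 to 0.837 in CLP and 1.16 to 1.28 in Sham, and which scaling is right was not tested.

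Leaving out each library in turn gave 3244 to 4235 genes higher and 3716 to 4997 lower, 13 to 18 of the wider list higher and 11 to 18 lower, 4 S1P genes higher and 2 to 3 lower, and 5 to 7 marker lists above Sham. Sphk1 kept rank 4 per length in CLP and rank 9 in Sham, and its share of kinase transcript ranged over 87.4% to 91.0% in CLP and 0.17% to 0.328% in Sham. Without CLP replicate 2, Sgpp1 had a log2 fold change of -0.53, and the count of lower S1P genes fell to 2.

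Same-numbered libraries of the groups did not deviate together (correlations of -0.12 to 0.17), so the numbers name libraries only. With the replicate as a block, 14 of the wider list were higher and 13 lower, and Sphk1 had a log2 fold change of 10.54. DESeq2 gave 20 and 12, and limma voom 16 and 13. Counting depth limits Sphk1 in Sham, Sgpp2 and S1pr5.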
